A study of Mus musculus with 14 samples.

Results

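The comparison described here is that of multipotent progenitors of the MPP3 type with and without a Dnmt3a mutation, by ATAC-seq, in which a transposase cuts open DNA so that reads mark accessible regions. Of the study's 14 libraries, 7 are of MPP3 cells and enter the comparison: 3 carry the Dnmt3a mutation and 4 do not. The regions tested are the 25058 of 705361 that lie on chromosomes 1 to 19 and X and reach a mean signal of at least 100 over all 14 libraries (3.55% of all regions). No measured difference between the groups entered this rule, but the comparison and its members were chosen with earlier results of these data known.

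The donors were C57BL/6J mice. The 2 libraries labelled WT come from marrow with Mx-Cre and neither mutation, the 2 labelled Dnmt3a from Dnmt3a-flR878H/+ marrow, the 2 labelled Npm1 from Npm1-frt/+ marrow, and the single Dnmt3a;Npm1 library from marrow with both alleles. Donor marrow, 1000000 cells per recipient, had been given to lethally irradiated CD45.1 hosts. Every host, WT recipients included, received poly(I:C) 4 weeks after the transplant, tamoxifen 4 weeks after that, and was killed after a further 4 weeks for sorting. The labels give the replicates as A and B and do not say whether these are separate animals, so p-values measure only the spread between these libraries. Carriers below are the Dnmt3a A, Dnmt3a B and Dnmt3a;Npm1 B libraries, and non-carriers are WT A, WT B, Npm1 A and Npm1 B. Recombination of the alleles was not checked here, since accessibility of the Dnmt3a and Npm1 genes does not report a point mutation or an inserted sequence.

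DNMT3A adds methyl groups to cytosines in CpG pairs that were not methylated before, and the R878H change in the mouse protein corresponds to the most common substitution of DNMT3A in human clonal haematopoiesis and acute myeloid leukaemia. Loss of its activity in blood stem cells is known to lower methylation at many sites and to favour self-renewal. MPP3 are progenitors below the long-term haematopoietic stem cell (LT-HSC) that give mostly granulocytes and macrophages. Mutant NPM1, a nucleolar chaperone displaced to the cytoplasm, is known for raised HOXA, HOXB and MEIS1 expression in leukaemia.

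The promoters of 4 genes whose regions stand among those described below are shown first, with every CpG pair in capitals, because CpG is the substrate of DNMT3A. They are RefSeq promoters of GRCm38.p6, each 250 bases before to 50 after the transcription start, and are printed in the direction of transcription. Tmtc1 lies at chr6:148444303-148444602 and Hoxa5 at chr6:52204538-52204837, and both regions had higher signal in carriers. Rps6ka1 lies at chr4:133874682-133874981 and Sgms2 at chr3:131490611-131490910, and both regions had lower signal in carriers. All 4 genes are on the minus strand.
Tmtc1: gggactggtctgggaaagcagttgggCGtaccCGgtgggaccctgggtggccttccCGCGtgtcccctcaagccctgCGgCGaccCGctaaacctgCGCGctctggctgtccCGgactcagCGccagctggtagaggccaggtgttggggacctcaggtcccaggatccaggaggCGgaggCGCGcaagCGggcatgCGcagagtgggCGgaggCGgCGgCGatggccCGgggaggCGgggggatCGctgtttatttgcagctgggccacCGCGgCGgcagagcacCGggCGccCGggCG
Hoxa5: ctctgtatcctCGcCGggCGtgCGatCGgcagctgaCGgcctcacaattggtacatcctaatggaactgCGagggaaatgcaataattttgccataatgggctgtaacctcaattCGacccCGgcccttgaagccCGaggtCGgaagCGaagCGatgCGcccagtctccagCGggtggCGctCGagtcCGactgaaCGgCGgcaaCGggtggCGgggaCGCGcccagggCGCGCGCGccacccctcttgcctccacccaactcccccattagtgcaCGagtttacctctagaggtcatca
Rps6ka1: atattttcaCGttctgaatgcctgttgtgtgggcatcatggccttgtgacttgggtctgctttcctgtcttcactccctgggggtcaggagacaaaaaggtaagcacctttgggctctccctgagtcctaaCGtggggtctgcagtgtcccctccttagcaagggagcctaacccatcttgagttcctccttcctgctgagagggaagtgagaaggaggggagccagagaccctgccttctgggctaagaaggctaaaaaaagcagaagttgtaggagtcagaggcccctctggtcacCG
Sgms2: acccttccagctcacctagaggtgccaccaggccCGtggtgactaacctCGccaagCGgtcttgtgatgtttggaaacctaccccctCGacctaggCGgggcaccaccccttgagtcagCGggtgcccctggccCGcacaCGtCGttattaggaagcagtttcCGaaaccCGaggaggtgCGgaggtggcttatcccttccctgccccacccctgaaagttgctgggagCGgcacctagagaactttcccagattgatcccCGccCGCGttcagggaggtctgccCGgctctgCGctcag
The Tmtc1 and Hoxa5 promoters hold 30 and 29 CpG pairs, Sgms2 holds 18 and Rps6ka1 holds 3. Over the 12783 promoters that lie wholly inside tested regions the median was 23, against 7 over the 32851 promoters of the table that were read.

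The carriers were not alike in depth. The deposited values look like reads multiplied by a library factor. On that reading the estimated reads in regions were 7.33 M (M, 1000000 reads) for Dnmt3a A and 9.98 M for Dnmt3a B. These lie below the 19.8 to 56.3 M of the other 5 MPP3 libraries, whose estimates are less certain. The share of signal that fell in the tested regions, a measure of enrichment, was 22.0% and 26.3% in these libraries, 35.5% in Dnmt3a;Npm1 B and 29.6% to 51.4% in the non-carriers. Carriers averaged 27.9% ± 6.92 (SD, n = 3) and non-carriers 39.4% ± 10.3 (SD, n = 4), a difference of -11.5 percentage points (two-sided exact permutation test over 35 arrangements, p = 0.171, adjusted p = 0.3 over 6 library measures, smallest possible p = 0.0286). The Dnmt3a libraries also stood apart from each other. Their signals correlated with a Spearman rho of 0.64 across tested regions, against 0.86 to 0.97 among the other 5 libraries. The size of the contrast of Dnmt3a;Npm1 B with the Npm1 libraries does not rest on them, and it is given below for the regions of smallest p, the signal quartiles, the lists with the widest shifts and the Hox clusters. The regions of smallest p were chosen by a fit that also used Dnmt3a;Npm1 B and the Npm1 libraries. In those regions the choice favours the sign and size of this contrast, which is therefore no independent check.

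**Figure D1:**
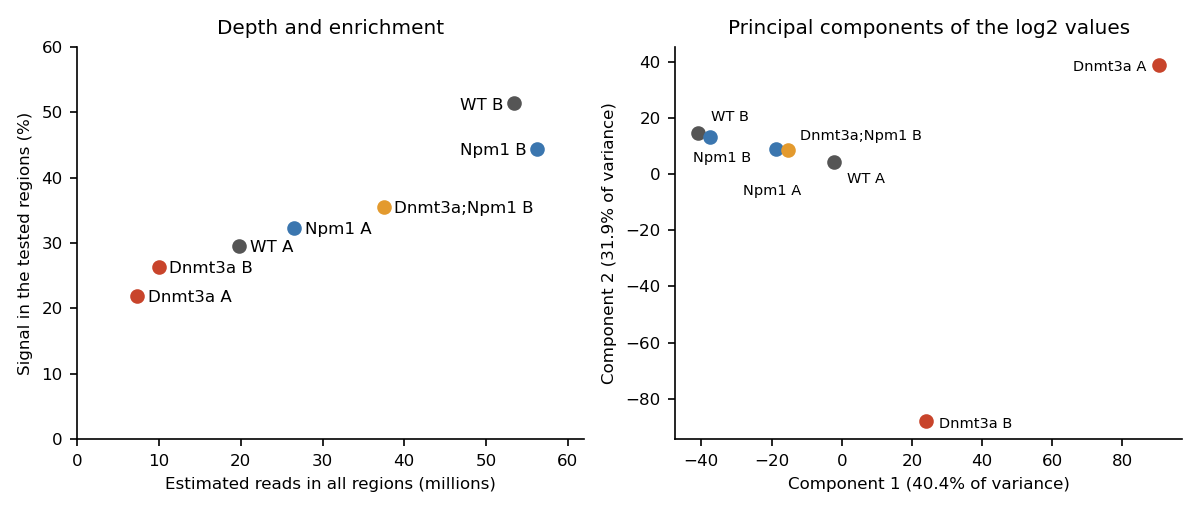
The left panel plots estimated reads in all regions (M) against the percent of signal in the tested regions for the 7 MPP3 libraries, and the right panel plots the first and second principal components of their log2 values. Dnmt3a A and Dnmt3a B have the fewest reads and the lowest shares and lie away from the cluster of the other 5 libraries, at 90.4 on component 1 and -88.0 on component 2.

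The labelled cell type was checked against its markers. The region at the start of Mpo, which encodes myeloperoxidase of granules and marks myeloid progenitors, had 131 to 270 units in MPP3 and 6.64 to 184 in LT-HSC, on a scale set over all 14 libraries. All 8 myeloid markers (Mpo, Ctsg, Elane, Prtn3, Cebpa, Csf1r, Irf8 and Gfi1) had a tested region, and their summed signal was 3831 to 5074 in MPP3 and 2635 to 4869 in LT-HSC. Regions of the 6 stem cell markers summed to 3068 to 3788 in MPP3 and 3801 to 4989 in LT-HSC. The lymphoid genes Rag1, Il7r and Cd3e had no tested region, nor did Gata1 of the erythroid set, Mcpt8, Cpa3, Prg2 and Epx of the mast and granulocyte set, or Cxcl12, Lepr and Cdh5 of the niche set. The myeloid sum was 3831 to 4036 in carriers and 4156 to 5074 in non-carriers, and the stem cell sum was 3528 to 3788 in carriers and 3068 to 3686 in non-carriers. In a sorted population, fewer cells with an open site and less opening per cell cannot be told apart.

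No region passed the threshold. Of 25058 regions, 0 (0%) had an adjusted p under 0.05 in limma with Npm1 status as a covariate, and the smallest adjusted p was 0.506. At an unadjusted p under 0.05 stood 2292 regions (9.15%), of which 1142 were higher in carriers (4.56%) and 1150 lower (4.59%). The median difference over all regions was -0.01 on the log2 scale. In 1327 regions (5.3%) all 3 carriers lay above all 4 non-carriers, and in 1406 (5.61%) they lay below. Weighting values by read depth with voom, an alternative chosen after the data had been seen, called 56 regions, all higher in carriers. Scaling to the library total moved the median difference to -0.48 and called 17 regions, all lower. There, 77 regions were higher and 3077 lower below an unadjusted p of 0.05. The 56 and the 17 regions had no member in common.

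The regions of smallest p follow, 10 in each direction. None passed: their unadjusted limma p lay between 0.000198 and 0.00106, and the adjusted p was 0.506 for each. Values are normalised signal, and differences are log2(signal + 4), carriers minus non-carriers, with the standard error.

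The region of smallest p holds the start of Tmtc1, which encodes an O-mannosyltransferase of the endoplasmic reticulum (chr6:148442456-148445240). Its signal was 543 and 421 in Dnmt3a A and B and 350 in Dnmt3a;Npm1 B, against 224 and 208 in WT and 190 and 180 in Npm1, so that the groups did not overlap. The difference was 1.04 ± 0.21, and 0.91 for Dnmt3a;Npm1 B against Npm1 alone. Hoxa5, a homeobox transcription factor of the HoxA cluster, had its start in the next region (chr6:52203222-52204967), which also overlaps the annotated spans of Hoxa3, Hoxa6 and Hoxaas3. Signal there was 287 and 267 in the Dnmt3a libraries and 244 in Dnmt3a;Npm1 B, against 132 and 111 in WT and 67.8 and 65.0 in Npm1. The 3 carriers lay close together, which a choice by small p favours, and the Npm1 libraries were the lowest of the 7. The part that depth has in the Hoxa5 values was not tested. The difference was 1.43 ± 0.28, with 1.17 against WT and 1.82 between Dnmt3a;Npm1 B and Npm1. Under voom weights its adjusted p was 0.00524, and under limma's library weights 0.0192. Those library weights were 5.6 for Npm1 B, 0.31 for Dnmt3a A and 0.35 for Dnmt3a B. Other limma refits of the Hoxa5 region did not pass. Its adjusted p was 0.181 with a term for the replicate letter and 0.351 with library totals. With the share of signal in tested regions as a covariate it was 0.9997, where the difference was 1.45 ± 0.35. In LT-HSC the same region had 328 in Dnmt3a, 330 and 262 in Dnmt3a;Npm1, 159 and 198 in WT and 252 and 279 in Npm1, a Dnmt3a difference of 0.44 ± 0.28 (limma, adjusted p = 0.480).

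Next stood regions at Tctn2, Kif19a, Coro1b and Ak8. Tctn2, a tectonic of the ciliary transition zone (chr5:124598466-124599240, start within the region), had 320, 197 and 162 in carriers and 49.4 to 70.4 in non-carriers, a difference of 1.72 ± 0.34, and 1.54 for Dnmt3a;Npm1 B against Npm1. A region inside Kif19a, a kinesin that limits cilium length (chr11:114785111-114787232), had 256, 278 and 133 against 29.1 to 92.2, a difference of 1.68 ± 0.37, and 1.58 in that smaller contrast. A region at an end of Coro1b, an actin-binding coronin (chr19:4149362-4151444), had 298, 407 and 143 against 71.7 to 85.8, a difference of 1.58 ± 0.34, which was 0.82 in the smaller contrast. The Dnmt3a;Npm1 B value was below both Dnmt3a values in each of these regions, and in all 10 higher regions named. A region inside Ak8, an adenylate kinase (chr2:28749851-28752180), had 251, 237 and 209 against 64.3 to 114, a difference of 1.38 ± 0.29, and 1.5 in the smaller contrast.

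The remaining higher regions lie at Prdm11, Camk2b, Cxxc5 and Tmem267. The Prdm11 region (chr2:93028612-93031594) lies inside this gene of the PR-domain family, 14571 bp from its nearer end, and holds the start of 4631405J19Rik. It had the most even carriers, with 442, 402 and 388 against 174 to 242. Its difference was 1.00 ± 0.21, and 0.87 for Dnmt3a;Npm1 B against Npm1. Inside Camk2b, a subunit of calcium/calmodulin-dependent kinase II (chr11:5999657-6001485), signal was 420, 412 and 234 against 122 to 171, a difference of 1.21 ± 0.27 that was 0.56 for Dnmt3a;Npm1 B against Npm1. Cxxc5 encodes a zinc finger protein that binds unmethylated CpG, and the region 2900 bp from it had 434, 567 and 284 against 165 to 220, with 1.03 ± 0.24 overall and 0.54 in the same smaller contrast. The region inside Tmem267 (chr13:119597609-119598348) had 589, 348 and 262 in carriers, while WT A alone had 256 and the other 3 non-carriers 58.2 to 91.6. WT A was the shallowest non-carrier and its share of signal in tested regions the lowest of the 4, at 29.6%. The Tmem267 difference was 1.73 ± 0.35, and 2.03 for Dnmt3a;Npm1 B against Npm1. With the share of signal in tested regions as a covariate it was 1.29 ± 0.41 (limma, adjusted p = 0.9997). The part that depth has in the Tmem267 difference was not tested.

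Among the lower regions, the one with the steepest difference lies inside Plekha2, which encodes a phosphoinositide-binding adaptor (chr8:25090368-25091651). Signal was 13.9 and 46.1 in Dnmt3a A and B, 127 in Dnmt3a;Npm1 B, 265 and 214 in WT and 214 and 230 in Npm1, a difference of -2.12 ± 0.48. The Dnmt3a libraries alone gave -3.01 against WT, and Dnmt3a;Npm1 B gave -0.78 against Npm1. A region at an internal start of Rps6ka1, the growth-factor-activated kinase RSK1 (chr4:133874215-133876669), had 178 and 219 in the Dnmt3a libraries and 303 in Dnmt3a;Npm1 B, against 415 to 517 in non-carriers. Its difference was -0.98 ± 0.21, with -0.63 for Dnmt3a;Npm1 B against Npm1, and in LT-HSC it was -0.65 ± 0.28 (limma, adjusted p = 0.287). The region holding the start of Sgms2, a sphingomyelin synthase (chr3:131489571-131491441), had 151 and 156 in the Dnmt3a libraries and 328 in Dnmt3a;Npm1 B, against 348 to 572, a difference of -1.11 ± 0.26 that was -0.44 for Dnmt3a;Npm1 B against Npm1. Near Scarb1, the receptor for high-density lipoprotein (chr5:125273477-125274306), signal was 31.3, 70.4 and 86.4 in carriers and 156 to 204 in non-carriers, a difference of -1.52 ± 0.35, and -1.20 for Dnmt3a;Npm1 B against Npm1.

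One lower region was about as low in the double mutant as in the single mutants. It lies inside Map4, a microtubule-associated protein (chr9:110037720-110038829), with 41.8, 53.7 and 50.3 in carriers and 120 to 184 in non-carriers, and its difference was -1.57 ± 0.37 overall and -1.56 for Dnmt3a;Npm1 B against Npm1. In the other 9 lower regions Dnmt3a;Npm1 B lay above both Dnmt3a libraries. These include regions inside Gipc2, a PDZ-domain protein, with 160, 159 and 261 against 345 to 403 (-0.90 ± 0.21, and -0.53 in the smaller contrast), and at the start of Afg1l, a mitochondrial ATPase, with 146, 89.6 and 224 against 279 to 370 (-1.08 ± 0.26, and -0.63). The remaining 3 lie beside the uncharacterised loci Gm34514, E130215H24Rik and Gm38926, with differences of -0.92 ± 0.19, -1.60 ± 0.33 and -0.94 ± 0.21, which were -0.68, -0.73 and -0.34 for Dnmt3a;Npm1 B against Npm1.

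**Figure D2:**
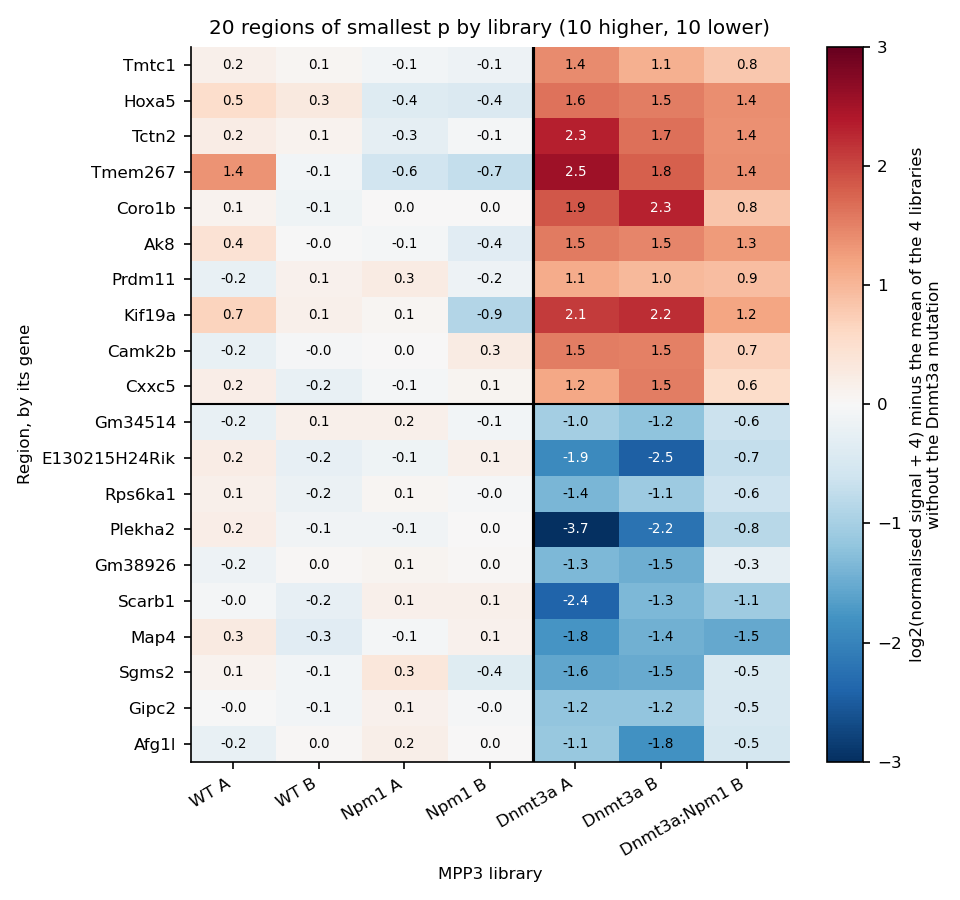
Each row is 1 of the 20 regions of smallest p, named by its gene, and each column an MPP3 library. Cells give log2(normalised signal + 4) minus the mean of the 4 non-carriers, and show Dnmt3a A and Dnmt3a B farther from the non-carriers than Dnmt3a;Npm1 B in most rows, with WT A as the highest non-carrier in the Tmem267 row.

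The directions separated by mean signal, taken over the deposited values of all 14 libraries before normalisation. That mean includes the 7 compared libraries and weighs those with larger values more. The library factor was 2.11 in WT B and 0.57 in Dnmt3a A. The quartiles are therefore not independent of the differences set beside them. In the quartile of regions with the lowest mean signal (100 to 132), 6.08% were higher in carriers and 1.75% lower at an unadjusted p under 0.05, and the median difference was 0.14. In the quartile with the highest mean signal (from 349.7), 1.17% were higher and 8.53% lower, with a median of -0.13. For Dnmt3a;Npm1 B against Npm1 the medians of these quartiles were 0.08 and -0.06. The shares followed the same order by position. Regions within 1000 bp of a gene end were higher in 3.61% and lower in 5.77% of 13704 cases, regions deeper inside genes were higher in 5.91% and lower in 2.96% of 7981, and intergenic regions were higher in 5.19% and lower in 3.65% of 3373. Wide regions deep inside genes, the widest quartile by length, had the highest share of higher values, 11.8% of 1530, with 2.48% lower. Of the 1142 higher regions 22.9% held a transcription start of the promoter table, and of the 1150 lower ones 57.5%.

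Enrichment moved with these shifts. With the library's share of signal in tested regions added as a covariate, the median difference was -0.02 in the lowest quartile of mean signal and -0.01 in the highest, and 648 regions, 302 higher and 346 lower, stood at an unadjusted p under 0.05. In LT-HSC the order was opposite to that in MPP3, with medians of -0.28 in the lowest quartile and 0.26 in the highest. There the share of signal in tested regions was 30.4% to 38.0% in the 3 carriers and 15.4% to 44.6% in the 4 non-carriers. The 20 named regions kept their direction with the covariate, the higher ones at 0.83 to 1.59 and the lower ones at -1.68 to -0.72. They had been chosen for small p in the same libraries, so a kept direction was likely beforehand and is no separate check. Their adjusted p with the covariate was 0.9997 in limma, the smallest of any region.

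**Figure D3:**
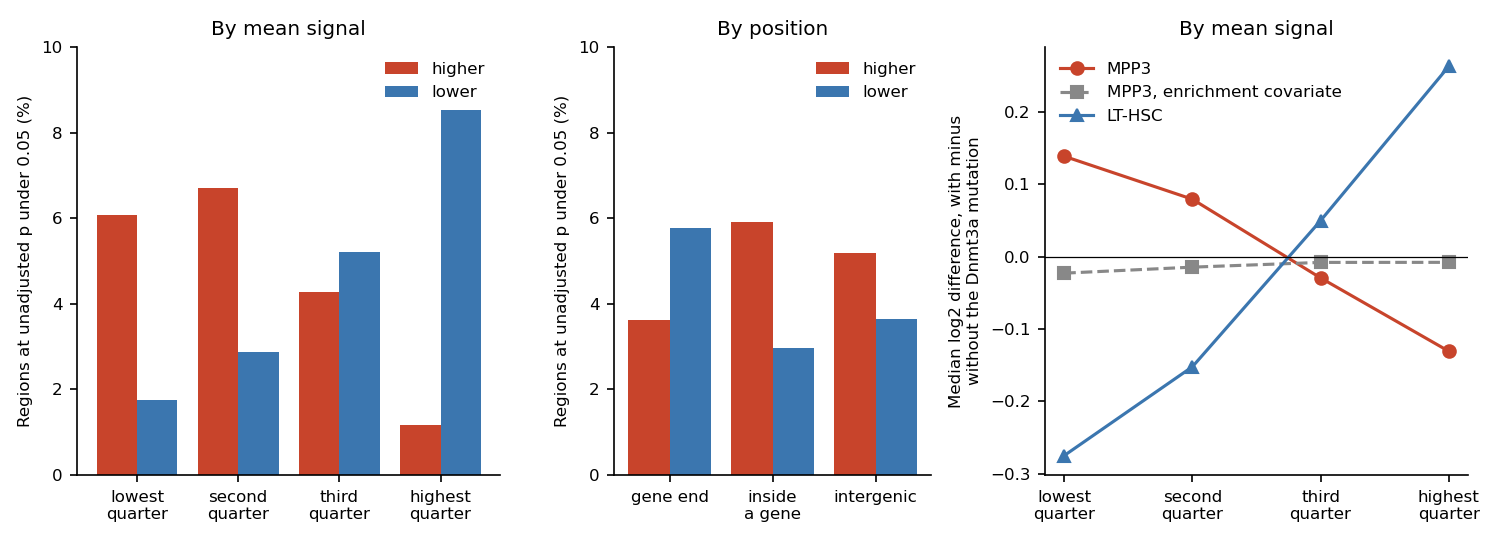
The left and middle panels show the percent of tested regions at an unadjusted p under 0.05 that were higher or lower in carriers, by quartile of mean signal and by position. The right panel shows the median log2 difference by quartile of mean signal, which goes from 0.14 to -0.13 in MPP3, from -0.28 to 0.26 in LT-HSC and from -0.02 to -0.01 in MPP3 with the enrichment covariate.

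The CpG content of promoters overlapped widely between the directions. Promoters lying wholly inside tested regions held a median of 20 CpG pairs (quartiles 13 and 30.25) in the higher regions, 24 (17 and 32) in the lower regions and 23 (15 and 31) in all. The higher set has 284 promoters in 236 regions and the lower set 926 in 650, again without chromosome 18. Promoters with 0 to 15 CpG pairs were higher in 2.86% and lower in 6.06% of cases, and those with 32 to 67 were higher in 2.09% and lower in 8.47%. Their mean signal differed as well, with medians of 262 and 449. On the X chromosome 12 regions were higher and 9 lower of 431 (2.78% and 2.09%), against 4.59% and 4.63% on the autosomes.

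The 14 gene lists cover 476 genes, of which 385 had a tested region, and 0 of their regions passed the adjusted threshold. They are given by their counts at an unadjusted p under 0.05 and their median difference, beside 4.56% higher, 4.59% lower and a median of -0.01 over all tested regions.

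Hox and Meis genes, homeobox factors and partners that hold the self-renewal program of stem cells, had 8 of 44 regions higher (18.2%) and 1 lower (2.27%). Their median was 0.24, and 34 of the 44 differences were positive. The median was 0.38 without the Npm1 mutation and 0.11 with it, and with library totals it was -0.22. The 1 lower region lay at Pknox1, a homeobox partner of the Pbx proteins (-0.40), and was singled out after its value was seen. Besides Hoxa5, 4 of the higher regions lay in HoxB. At an end of Hoxb9 (chr11:96270875-96272807) signal was 360, 248 and 170 in carriers and 102 to 156 in non-carriers, a difference of 0.90 ± 0.27, and 0.68 for Dnmt3a;Npm1 B against Npm1. Inside Hoxb6 (chr11:96299002-96300205) it was 287, 285 and 138 against 63.1 to 129, a difference of 1.16 ± 0.35, which was 0.47 for Dnmt3a;Npm1 B against Npm1. At the Meis1 start (chr11:19018286-19021228), where Meis1 encodes the cofactor of HOXA9, signal was 763, 882 and 639 against 502 to 618, a difference of 0.41 ± 0.16. This Meis1 difference had the opposite sign, -0.06, when libraries were scaled to their totals.

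Hoxa9 and Hoxa10 are the genes of the cluster best known in NPM1-mutant leukaemia. The regions at Hoxa9 had differences of -0.27 ± 0.21 and -0.06 ± 0.18, with 228, 251 and 264 in carriers and 237 to 349 in non-carriers for the first (chr6:52225105-52226780). The larger region at Hoxa10 (chr6:52232425-52235413) had 315, 633 and 563 against 311 to 387, a difference of 0.49 ± 0.23. Dnmt3a A lay among the non-carriers there. In the other Hoxa10 region (chr6:52239998-52240896) signal was 265, 85.7 and 129 against 93.0 to 104, a difference of 0.50 ± 0.38, with Dnmt3a B below the non-carriers. Counted over every gene of the clusters, HoxC and HoxD genes outside the list included, HoxA had 3 of 14 regions higher and a median of 0.23, HoxB 4 of 12 with 0.51, HoxC 3 of 7 with 0.73 and HoxD 0 of 4 with 0.47, and 0 regions of these clusters were lower. For Dnmt3a;Npm1 B against Npm1 the 4 medians were 0.03, 0.14, 0.28 and 0.48, and in LT-HSC they were -0.39, -0.20, -0.68 and -0.49. With the enrichment covariate they were 0.07, 0.31, 0.16 and 0.0019, and with library totals HoxA was at -0.24.

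Developmental transcription factors of other tissues, normally kept closed in blood by Polycomb, had the most one-sided differences of the 14 lists. Of 73 regions, 62 were positive, 7 were higher (9.59%) and 0 lower, and the median was 0.34. Examples are a region 495 bp from Hand1, a factor of heart and placenta, with 200, 234 and 107 in carriers and 59.3 to 74.2 in non-carriers (1.23 ± 0.36, and 0.61 for Dnmt3a;Npm1 B against Npm1), and a region inside Irx2, an Iroquois factor of embryonic patterning, with 247, 175 and 253 against 70.7 to 163 (1.11 ± 0.35). The region at Lhx2, of forebrain and eye, overlapped between groups, with 475, 742 and 352 against 196 to 426 (0.78 ± 0.27). The list's median was 0.29 for Dnmt3a;Npm1 B against Npm1, 0.03 with the enrichment covariate, -0.34 in LT-HSC and -0.12 when scaled to library totals, where the median of all regions was -0.48. Its regions had a median mean signal of 157, below the 198 of all tested regions, and the part of depth in the difference was not tested.

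Myeloid genes leaned the other way. Of their 65 regions 5 were lower (7.69%) and 1 higher (1.54%), and the median was -0.18, with -0.12 for Dnmt3a;Npm1 B against Npm1, -0.18 with the enrichment covariate and -0.18 in LT-HSC. The region at the Mpo start (chr11:87793148-87794349) had 188, 146 and 142 in carriers and 229 to 294 in non-carriers, a difference of -0.77 ± 0.24, with -0.96 for Dnmt3a;Npm1 B against Npm1, and in LT-HSC the difference was -1.69 ± 0.50 (limma, adjusted p = 0.200). The start of Cd33, a sialic-acid-binding receptor of myeloid cells, had 169, 154 and 258 against 274 to 321 (-0.61 ± 0.22). A region 9647 bp from Plac8 had 31.3, 124 and 86.4 against 145 to 204 (-1.12 ± 0.42). The start of Cebpa, the factor that commits cells to granulocytes and macrophages, had 827, 779 and 794 against 802 to 1045, a difference of -0.25 ± 0.16 in which the groups overlapped.

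**Figure D4:**
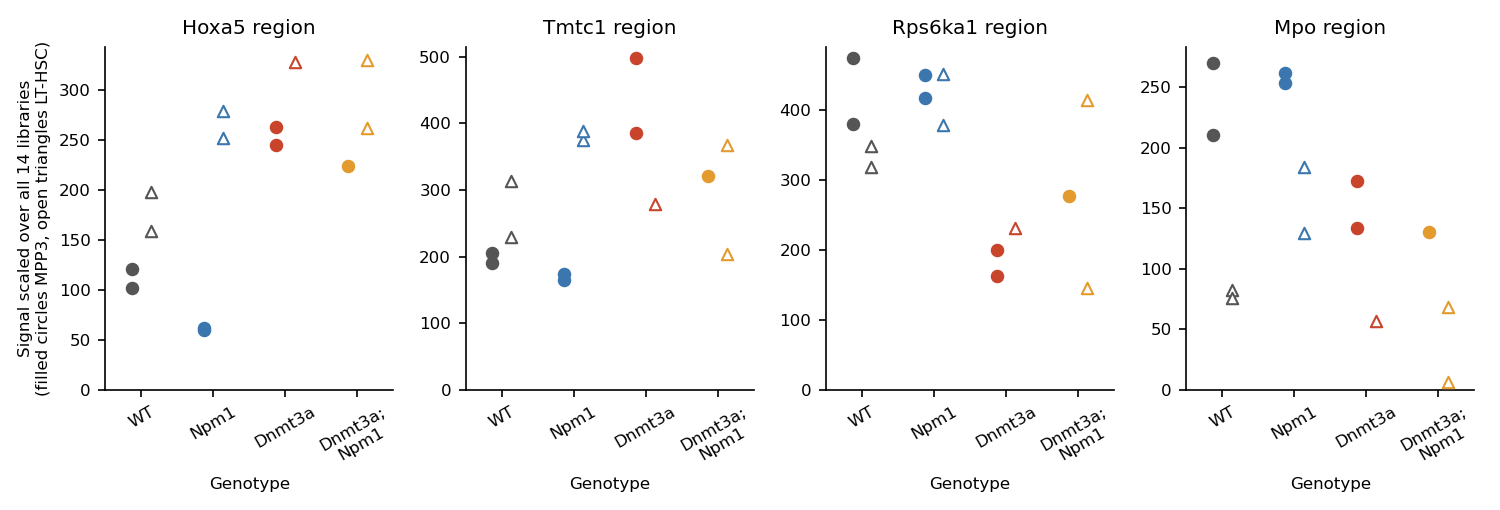
Signal scaled over all 14 libraries is shown by genotype for the regions of Hoxa5, Tmtc1, Rps6ka1 and Mpo, 1 point per library, with filled circles for MPP3 and open triangles for LT-HSC. In the Hoxa5 panel the MPP3 carriers sit at 224 to 263 and the non-carriers at 59.6 to 121, and in the Mpo panel the MPP3 carriers sit at 131 to 172 and the non-carriers at 210 to 270.

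Leukaemia genes, a list that shares members with the others, had 13 of 95 regions lower (13.7%) and 6 higher (6.32%), with a median of -0.10. The lower ones include a region inside Cd47, the signal that holds off phagocytes, with 155, 137 and 134 in carriers and 225 to 303 in non-carriers (-0.86 ± 0.23), a region 5692 bp from Ptpn11, the phosphatase SHP2, with 197, 321 and 234 against 360 to 431 (-0.72 ± 0.22), and a region inside Runx1 with 124, 159 and 120 against 206 to 251 (-0.77 ± 0.25). In each of these, Dnmt3a;Npm1 B was as low as the single mutants or lower than 1 of them, and its own contrast with Npm1 gave -1.10, -0.74 and -1.03. Runx1, a master factor of blood stem cells, is also in the stem cell list, which had 6 of 109 regions higher (5.50%), 4 lower (3.67%) and a median of 0.11. There a region inside Fli1 had 251, 226 and 142 against 71.7 to 96.3 (1.18 ± 0.32), and a region inside Mecom had 169, 234 and 97.8 against 56.9 to 85.8 (0.98 ± 0.36). Regions of 1 gene did not share a direction, as values singled out afterwards show. Elsewhere inside Fli1 (chr9:32509323-32510354) signal was 101, 148 and 171 against 219 to 276 (-0.79 ± 0.26), and the region at an end of Fli1 (chr9:32539102-32542744) had a difference of -0.42 ± 0.16. Inside Runx1 another region (chr16:92643876-92645580) had 200, 180 and 160 against 102 to 122 (0.67 ± 0.28).

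Inflammatory lists follow. Interferon genes, which poly(I:C) given to all hosts is known to induce, had 0 of 50 regions higher and 1 lower (2.00%), the start of Eif2ak2, the RNA-activated kinase PKR, with 205, 229 and 188 against 317 to 335 (-0.66 ± 0.20), and their median was -0.04. TNF and NF-kB genes had 3 of 73 higher (4.11%) and 6 lower (8.22%), 26 positive differences and a median of -0.11. A region inside Tnfrsf1b, a TNF receptor, had 324, 241 and 252 against 102 to 168 (1.01 ± 0.27), and the start of Ccl3, a chemokine, 146, 72.9 and 135 against 195 to 251 (-0.91 ± 0.30). Early response genes had 5 of 95 higher (5.26%) and 4 lower (4.21%) with a median of -0.03, among them a region inside Nr4a1, an orphan nuclear receptor, with 242, 246 and 156 against 71.8 to 128 (1.00 ± 0.28).

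Genes of DNA methylation and chromatin had 2 of 90 regions higher (2.22%) and 8 lower (8.89%), with a median of -0.04. A region inside Bcor, a Polycomb partner, had 178, 194 and 123 against 64.1 to 77.2 (1.15 ± 0.35), and the start of Setd2, an H3K36 methyltransferase, 270, 488 and 479 against 588 to 698 (-0.68 ± 0.22). The 6 tested regions of Dnmt3a itself had differences from -0.04 to 0.37, with unadjusted p of 0.0679 or more, and the Npm1 region had -0.17 ± 0.17. Cell cycle genes had 4 of 71 regions higher and 4 lower (5.63% each) and a median of 0.01. Erythroid and megakaryocyte genes had 1 of 48 higher and 1 lower (2.08% each), lymphoid genes 4 of 61 higher (6.56%) and 3 lower (4.92%), niche genes 2 of 25 higher (8.00%) and 0 lower, and mast cell, basophil and eosinophil genes 0 of 16 in either direction. Their medians were 0.12, -0.09, 0.12 and -0.02 in that order. The niche regions were inside Col1a1, with 388, 292 and 139 against 57.9 to 165, and near Pecam1.

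**Figure D5:**
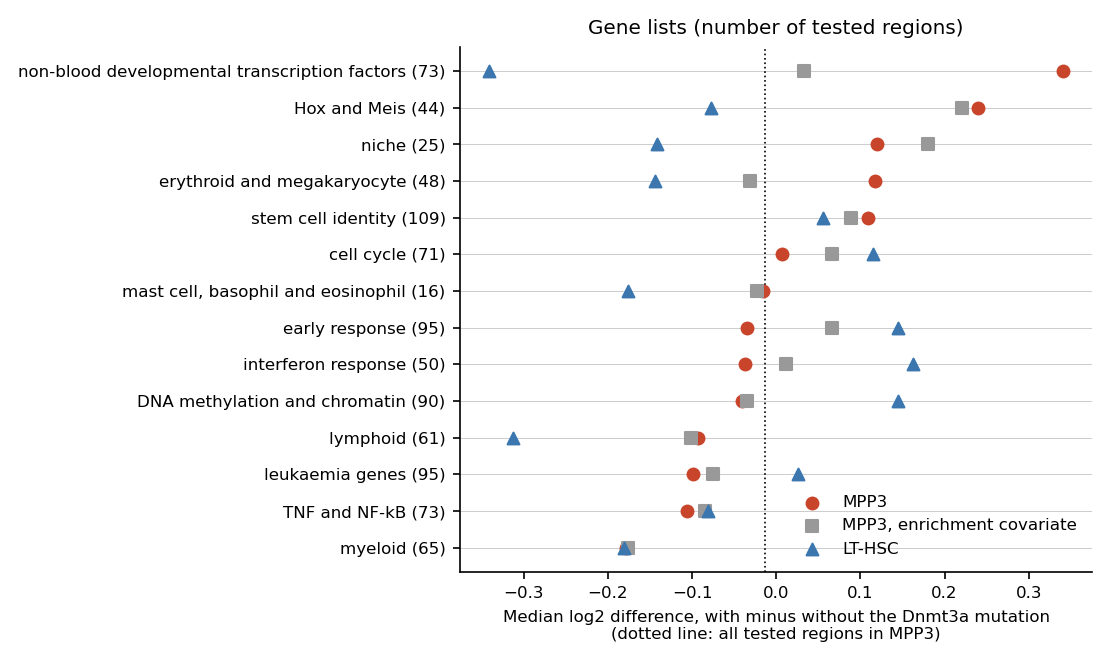
Points give the median log2 difference of each gene list, carriers minus non-carriers, with the number of tested regions in parentheses, for MPP3 (circles), MPP3 with the enrichment covariate (squares) and LT-HSC (triangles). The developmental factors go from 0.34 in MPP3 to 0.03 with the covariate and -0.34 in LT-HSC, Hox and Meis from 0.24 to 0.22 and -0.08, and the myeloid list stays at -0.18 in all 3.

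The contrast was then taken apart by Npm1 status. Without the Npm1 mutation, Dnmt3a A and B against WT A and B, 0 regions passed (0%) and 3030 stood at an unadjusted limma p under 0.05 (12.1%), 1481 higher (5.91%) and 1549 lower (6.18%). With the Npm1 mutation, Dnmt3a;Npm1 B against Npm1 A and B, 0 passed and 277 stood there (1.11%), 116 higher (0.463%) and 161 lower (0.643%). These contrasts share no library. The 1481 regions higher without the Npm1 mutation had a median difference of 0.16 with it, and 64.6% of them were positive, against 50.4% of all tested regions. The 1549 lower regions had a median of -0.09 and 63.9% were negative, against 49.6% of all. Across all 25058 regions the differences of both contrasts correlated with Pearson's r = 0.173, where regions are not independent replicates and all libraries share 1 region set.

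The interaction, the Dnmt3a difference with minus without the Npm1 mutation, gave 0 calls of 25058 (0%) in limma, and 805 regions at an unadjusted p under 0.05 (3.21%), 380 positive (1.52%) and 425 negative (1.7%). The smallest p in the positive direction lay at E130308A19Rik, Gm40929 and Gm51537. At E130308A19Rik (chr4:59625698-59627042) signal was 95.8 and 83.2 in the Dnmt3a libraries, 349 in Dnmt3a;Npm1 B and 332 to 408 in non-carriers, an interaction of 2.16 ± 0.42. In the negative direction lay Gas7, Stk16 and Frmd4a. Inside Gas7, a growth-arrest gene of the actin cytoskeleton, the Dnmt3a libraries had 402 and 358, Dnmt3a;Npm1 B had 112 and non-carriers 186 to 218, an interaction of -1.91 ± 0.43. The adjusted p was 1.00 for each of these 6. Leaving out Dnmt3a A gave 117 calls and leaving out Dnmt3a B gave 414, of which 10 were in both sets, so each rests on the single Dnmt3a library that was kept.

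Set beside LT-HSC, the MPP3 differences tended to the opposite sign. In LT-HSC 0 regions passed for the Dnmt3a mutation (0%) and 3542 stood at an unadjusted p under 0.05 (14.1%), 1863 higher (7.43%) and 1679 lower (6.7%). Of the 1481 regions higher in Dnmt3a than WT MPP3, 20.4% were positive in LT-HSC, and of the 1549 lower ones 31.6% were negative, against 50.2% and 49.8% of all tested regions. Across regions the differences in MPP3 and LT-HSC correlated with Pearson's r = -0.281. Of the 10 higher regions named, 2 were positive in LT-HSC, Hoxa5 and Tctn2, and of the 10 lower ones 6 were negative. The test of MPP3 minus LT-HSC called 0 regions (0%). An unadjusted p under 0.05 was reached by 4056 (16.2%), 2011 positive (8.03%) and 2045 negative (8.16%), and the smallest adjusted p was 0.0599. That value belongs to the Tmem267 region, with a difference between cell types of 2.75 ± 0.45, where LT-HSC signal was 480 and 639 in the Npm1 libraries and 133 to 316 in the other 5. Of the LT-HSC libraries, these held the smallest part of their signal in tested regions, 19.1% and 15.4%. Next stood a region 23569 bp from Gm46259 at 3.13 ± 0.59 and Coro1b at 2.64 ± 0.50, and in the negative direction Gm38926 at -1.65 ± 0.34, Gipc2 at -1.75 ± 0.36 and Lyrm7, a mitochondrial complex assembly factor, at -1.89 ± 0.41.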

How the data were processed

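ATAC-seq of sorted MPP3 and LT-HSC was compared with groups taken from the labels. The authors deposited 1 signal value per region and library on mm10. Tools named in the submitters' processing notes are R 3.6.0 with DiffBind 2.12.0 and edgeR 3.26.4, and HOMER 4.10; the aligner, peak caller and scaling are not given in the sources used here. Deposited values looked like reads times a library factor, rounded, so no count model was used and the value of 1 read was estimated from how often each low whole value occurs. In Dnmt3a A and B 100% of low values lay on whole reads. In the other 5 MPP3 libraries 1 read is worth less than 1 unit, so that their depth could not be checked in this way and is less certain.

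Library factors by the trimmed-mean method (30% of log ratios and 5% of mean levels trimmed) were computed over the 25058 tested regions, and limma 3.58.1 in R 4.3.3 was fitted to log2(signal/factor + 4) of the 7 MPP3 libraries, with Npm1 and Dnmt3a status, a trended, robust prior and Benjamini-Hochberg adjustment at 0.05. The contrasts by Npm1 status came from the same fit with an interaction term, and LT-HSC contrasts from a fit of all 14 libraries with both statuses nested in cell type. In fits that leave an arm with 1 library, that library is assumed to vary like the others. The main fit was tested on simulated data in which every library had the same spread, so that test does not cover the wider spread of the Dnmt3a libraries. Regions took genes of GRCm38.p6 within 100000 bp, so a gene's name does not show that the region acts on it.

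Named were the 10 regions of smallest p in each direction (1 per gene), up to 3 per gene list, those of Dnmt3a, Npm1, Hoxa9, Hoxa10, Meis1 and Cebpa, and 3 per direction for the interaction and the cell type difference. The Hox clusters were counted after their values were seen. Comparison, members and lists were chosen with earlier results of these data known. Left out were 71 regions of mean 100 or more on unplaced contigs or Y.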

Additional observations from a re-analysis of the deposited data

Results flagged for a closer look

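Regions on unplaced contigs entered no comparison. They held 0.340% of the signal in Dnmt3a A, above the 0.234% to 0.3001% of the 4 MPP3 libraries without the Dnmt3a mutation. The other carriers had 0.264% in Dnmt3a B and 0.245% in Dnmt3a;Npm1 B, and the groups did not differ beyond their spread (two-sided exact permutation test, p = 0.629). Dnmt3a A was also the shallowest MPP3 library.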

How the results depend on the processing

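For the Dnmt3a comparison, with no region called as reported, these alternatives called some: 17 with library totals (all lower), 5 with no filter on low values (all lower), 2 with library weights (Hoxa5 and Tmem267, both higher), and, chosen after the data had been seen, 56 with voom weights on estimated reads (all higher). The 2 regions of the library weights were both among the 56. The cause was not tested. Apart from these and the replicate block below, the planned settings called 0, as did leaving out both Dnmt3a libraries and leaving out each library in turn (0 to 0 calls, with 840 to 3864 regions at an unadjusted p under 0.05, the fewest without WT B). The replicate block called 24 regions, all higher, 62.5% of them intergenic, such as chr2:98665980-98667613 with a mean signal of 82134. In that region Dnmt3a A had 286710, Dnmt3a B 93894 and Dnmt3a;Npm1 B 54750, against 20790 to 81539 in non-carriers. Of the 24 regions, 1 was among the 56, the Tmem267 region named above. Other called regions lay near it, such as chr13:119609431-119611425. Letters A and B do not pair the libraries by label. Their deviations correlated at 0.087 between WT and Dnmt3a, 0.415 between WT and Npm1 and 0.067 between Dnmt3a and Npm1. For the interaction, leave-one-out fits called 0 to 414 regions, and none could be made without Dnmt3a;Npm1 B. The replicate block called 0 there and for MPP3 minus LT-HSC. For the latter, library totals called 2940 (33 higher, 2907 lower), cyclic loess 2, and leave-one-out fits 0 to 2 (2 without WT A, 1 without Dnmt3a B). The share of signal in tested regions stayed lower in carriers, by -15.3 to -7.50 percentage points, without each library in turn.

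Without a filter the signs reversed at Zfpm1 (-0.14), Ms4a2 (-0.0057), Kitl (-0.12), E2f2 (-0.041), Arid1a (-0.023), Hoxa10 (-0.12) and Meis1 (-0.21). With library totals Meis1 reversed (-0.059). These are all the reversals among 65 regions and 1527 refits. Of 336 refits of list medians, 54 moved by more than 1 SD, all 14 lists doing so with library totals and with no filter. The 2 Dnmt3a libraries had a median of 46.9 and 77.8 estimated reads per tested region, against 170.1 to 724.9 in the other 5. The part of depth in the lack of calls was not tested.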
